A study of Mus musculus with 45 samples.

Results

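Single young mouse oocytes that had been cultured in vitro were compared, gene by gene, with those labelled in vivo, here called uncultured. The comparison takes 16 of the 45 libraries of the series, chosen by their labels: 8 in vitro young and 8 in vivo young, each made from 1 oocyte. The study moved oocytes between follicles to learn how somatic cells bear on oocyte quality, and both groups were its controls. A further 11 libraries of young oocytes placed into young follicles and cultured (reconstituted chimeric follicles, YY) entered the fit for its estimate of spread. They thereby also entered the filter on low counts and the scaling: 8749 genes were tested with them and 8387 without. The labels give no strain, age in weeks, medium, length of culture or meiotic stage, and do not say whether the cultured controls were kept in follicles. Nor do they say whether the in vivo oocytes spent any time in culture after collection. They name no animal either, so p-values here speak of the spread from library to library alone, which may be technical.

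A growing oocyte is built up inside its follicle, joined by gap junctions to granulosa cells, and stocks messenger RNA and protein for the first divisions of the embryo. When it is fully grown its transcription falls silent, and stored transcripts then change mainly through adenylation and decay. Culture replaces the fluid, oxygen and hormones that the ovary supplies.

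Of the 8749 genes with enough counts to be tested, 12 (0.137%) were called at an adjusted p under 0.05 by the edgeR quasi-likelihood test. In the cultured oocytes 11 rose (0.126% of genes tested) and 1 fell (0.0114%). The higher genes were Avpi1, Ubtf, Cnbp, Trmt10c, Atg101, Crym, Lsm1, Gm43303, Ppif, Ctdp1 and Psmd7, and the lower gene was Rims1. Of the 12, Ubtf, Crym, Ppif and Ctdp1 changed by 2-fold or more. An unadjusted p under 0.05 was reached by 844 genes (9.65%), of which 437 (4.99%) were estimated higher and 407 (4.65%) lower. The median log2 difference, in vitro minus in vivo here and throughout, was -0.004 over all genes tested, and the median absolute difference was 0.16.

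How many genes were called depended on single libraries and on the tool. Leaving out 1 library at a time, edgeR called 0 genes without in vitro young replicates 1, 3 or 5, where 762, 831 and 780 genes had an unadjusted p under 0.05. It also called 0 without in vivo young replicates 3, 4 or 8, where the unadjusted counts were 704, 777 and 750. It called 3 genes without in vivo young replicate 5, 6 without in vitro young replicate 2, 6 without in vitro young replicate 8 and 7 without in vivo young replicate 1. Without in vivo young replicate 6 it called 18, 10 higher and 8 lower, a share of 55.6% higher. DESeq2 called 44 genes, 32 of them higher, and these held all 12. Limma voom with quality weights called 37, 22 of them higher, and these held 11 of the 12. After correction of each library for transcript GC content and length, 10 genes were called higher and 5 lower, a share of 66.7% higher against 91.7% without it. All 12 genes kept their sign in each alternative fit in which they were tested. Those fits reuse the libraries from which the 12 were picked, so the kept sign is not separate support.

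**Figure D1:**
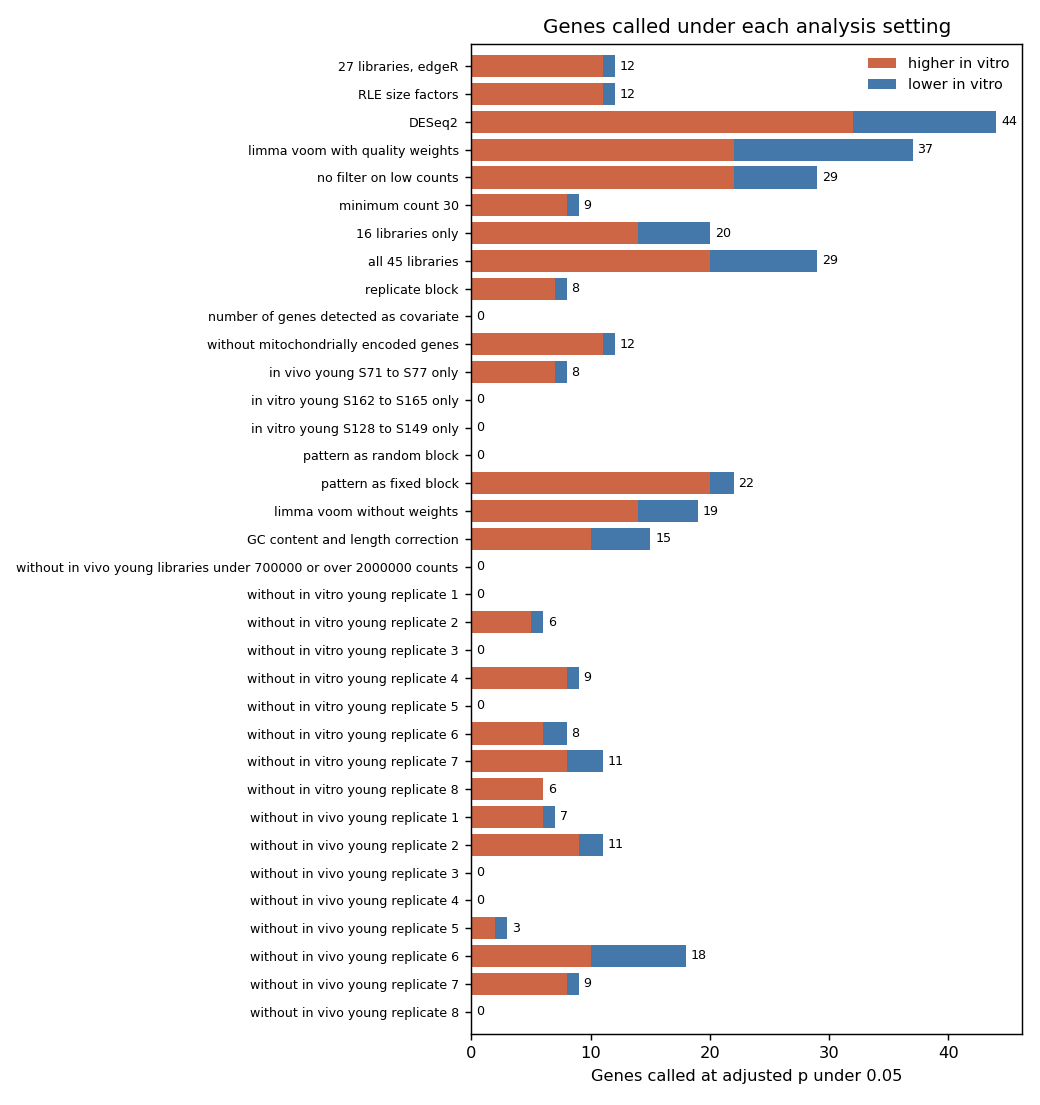
Number of genes called at adjusted p under 0.05 (x axis) under each analysis setting (y axis), split into higher (orange) and lower (blue) in vitro. The top bar is the reported fit of 27 libraries, and "pattern" means a set of libraries with the same present and near absent genes. As a random block the pattern was taken within each group. The lowest 16 bars leave out 1 library each. The counts run from 0 to 44, and 6 of those 16 are 0.

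Libraries were about as alike across the groups as within them. The median Spearman correlation over the genes tested was 0.928 between in vitro libraries, 0.919 between in vivo libraries and 0.922 between groups. Total counts ran from 900194 to 1527370 in vitro and from 418703 to 2201980 in vivo. The shallowest and the deepest library, in vivo young replicates 5 and 6, were the least like their own group (median correlations 0.905 and 0.894). At a common depth of 418703 counts the cultured oocytes held 13149 ± 242.6 detected genes and the uncultured ones 12786 ± 215 (exact permutation test, p = 0.00808, adjusted p = 0.0808). With the number of genes that have a count as a covariate, edgeR called 0 genes and 664 had an unadjusted p under 0.05. Without in vivo young replicates 3, 5 and 6, the 2 shallowest and the deepest of the group, it also called 0 (899 with an unadjusted p under 0.05).

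Library numbers do not cross the groups: in vivo young holds S17, S18 and S71 to S77, and in vitro young holds S128 to S149 and S162 to S165, so culture and whatever else went with the numbering cannot be told apart. With in vitro S162 to S165 alone or S128 to S149 alone, edgeR called 0 genes (675 and 724 with an unadjusted p under 0.05). Across the 45 libraries 9 genes were either present or near absent, and libraries fall into patterns by them. The 16 libraries showed 4 of these patterns, and 3 occurred in both groups. With the pattern within each group as a random block, limma voom called 0 genes (599 with an unadjusted p under 0.05). Libraries of different groups that share a pattern were not joined in that block. With the pattern itself as a fixed block in the 16 libraries, edgeR called 22, which held 9 of the 12.

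Both groups held the transcripts of oocytes. All 14 oocyte markers were detected in all 16 libraries, and their summed counts-per-million (CPM, here unscaled) were 27846 ± 3354 in the cultured and 29779.7 ± 3375 in the uncultured oocytes (mean ± SD, n = 8; exact two-sided permutation test, p = 0.268, adjusted p = 0.64). The 22 granulosa and cumulus markers summed to 714 ± 164.2 CPM, from 565 to 1046, and to 673 ± 173 CPM, from 441 to 962 (exact permutation test, adjusted p = 0.784). Serpine2, a protease inhibitor, was 628 and 627 CPM and made up most of both sums, so the sums say little of the other markers. Of the 22 markers 14 had more counts over the 8 cultured libraries, 3 had fewer and 5 had equal counts, with totals of 9352003 counts in vitro and 8983504 in vivo. The counts were 116 and 50 for Inha, 18 and 4 for Inhba and 27 and 2 for Inhbb (inhibin and activin subunits), 15 and 0 for the activin inhibitor Fst, 23 and 7 for the prostaglandin synthase Ptgs2 and 47 and 23 for the gap junction protein Gja1. The 3 markers with fewer counts in culture were Star (7 and 15), Nr5a1 (1 and 2) and Amhr2 (0 and 1). The 4 markers that passed the filter all had positive estimates, from 0.01 for Serpine2 to 0.81 for Inha, and none was called. Inha passed the filter mainly through cultured libraries, with 5 to 30 counts there and 0 to 19 in the uncultured ones. Its positive estimate is therefore no separate support. The part of these markers in the 12 calls was not tested. Amh, Foxl2, Has2 and Ptx3 were at 0 in all 16 libraries. Theca and stroma markers summed to 3.27 ± 1.45 and 1.504 ± 1.34 CPM (exact permutation test, adjusted p = 0.128), with Cyp17a1, Col1a2, Col3a1 and Tagln at 0. Immune markers summed to 4.17 ± 3.02 and 5.12 ± 3.28 CPM and markers of endothelium and blood to 80.7 ± 19.8 and 67.4 ± 19.8 CPM (exact permutation tests, adjusted p = 0.784 and 0.64), with the haemoglobin genes at 0.

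The promoters of 3 called genes are shown because 11 of the 12 moved in 1 direction, with the gene that fell for contrast. From the RefSeq promoter table (GRCm38.p6, 250 bases before to 50 after a start) 12 promoters were taken for 7 of the 12 genes. No promoter was taken for the others, Ctdp1 among them, which does not show that the table lacks one. Avpi1 (chr19:42128944-42129243, minus strand) had the smallest p of the comparison, Cnbp (chr6:87851057-87851356, minus strand) was the most abundant of the 12, and Rims1 (chr1:22806109-22806408, minus strand) was the gene that fell. Capitals mark the motifs CCAAT and GGGCGG on either strand.
Avpi1: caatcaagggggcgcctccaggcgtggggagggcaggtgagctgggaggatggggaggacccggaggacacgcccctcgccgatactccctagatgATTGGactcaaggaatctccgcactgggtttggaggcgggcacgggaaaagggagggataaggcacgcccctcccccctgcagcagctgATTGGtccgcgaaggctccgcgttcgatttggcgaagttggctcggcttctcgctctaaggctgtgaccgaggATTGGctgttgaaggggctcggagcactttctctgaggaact
Cnbp: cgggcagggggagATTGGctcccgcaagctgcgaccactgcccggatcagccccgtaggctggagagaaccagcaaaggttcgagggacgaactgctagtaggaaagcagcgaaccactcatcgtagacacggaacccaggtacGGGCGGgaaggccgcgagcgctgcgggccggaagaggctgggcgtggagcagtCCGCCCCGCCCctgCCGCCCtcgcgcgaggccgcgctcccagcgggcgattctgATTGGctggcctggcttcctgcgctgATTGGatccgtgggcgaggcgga
Rims1: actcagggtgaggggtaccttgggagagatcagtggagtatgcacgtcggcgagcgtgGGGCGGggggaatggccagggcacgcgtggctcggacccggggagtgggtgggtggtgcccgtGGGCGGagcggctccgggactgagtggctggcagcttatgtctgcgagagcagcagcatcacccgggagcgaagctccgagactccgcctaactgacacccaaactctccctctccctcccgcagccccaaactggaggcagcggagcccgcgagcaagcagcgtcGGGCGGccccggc
The Avpi1 window held 3 CCAAT and 0 GGGCGG matches, the Cnbp window 3 and 4, and the Rims1 window 0 and 3. Over all 32851 promoters of that table CCAAT was found in 37.4% and GGGCGG in 35.7%. Among the 12 promoters taken for called genes, 6 of which belong to Ubtf, CCAAT was found in 4 and GGGCGG in 9. The TATA box (TATAAA), the E-box (CACGTG) and the cAMP response element (TGACGTCA), also searched on both strands, were in 0 of the 12 and in 13.6%, 7.15% and 1.79% of all. These matches describe the letters of the windows only.

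Among genes of transcription and RNA handling, Ubtf, the upstream binding factor that opens ribosomal DNA for RNA polymerase I (chr11:102195386-102210569, mm39), was 22.7 ± 6.24 and 8.28 ± 4.43 CPM in vitro and in vivo (mean ± SD of CPM, TMM-scaled from here on; n = 8 each, as for all values below). Its cultured libraries ran from 10.4 through 25.3 to 28.2 CPM and its uncultured ones from 3.51 through 7.71 to 17.01 CPM (lowest, median, highest). In 7 of 8 cultured libraries it lay above every uncultured one, replicate 4 being the exception, and it rose by 1.41 ± 0.27 on the log2 scale (SE; edgeR adjusted p = 0.0300). It passed the filter through the groups in which it is high, with 2 to 21 counts in the uncultured libraries. Ctdp1, the phosphatase that acts on the tail of RNA polymerase II, ran from 5.19 through 9.84 to 16.7 CPM in vitro and from 2.24 through 2.83 to 5.11 CPM in vivo. Its groups did not overlap, and its rise of 1.67 ± 0.36 (edgeR adjusted p = 0.0367) was the largest of the 12, at the lowest mean level. It rests on 2 to 6 counts in the uncultured and 5 to 18 in the cultured libraries. Ctdp1 passed the filter through the groups in which it is high, did not pass it with the 16 libraries fitted alone, and was called in 6 of the 30 alternatives in which it was tested, 2 of them with 1 library left out. Lsm1 (chr8:26275316-26294004), part of the ring that leads deadenylated messages to decapping, ran from 75.3 through 84.3 to 114 CPM in vitro and from 39.9 through 48.5 to 72.3 CPM in vivo. Its groups did not overlap either, and it rose by 0.72 ± 0.15 (edgeR adjusted p = 0.0318).

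Cnbp (chr6:87819597-87828089), a zinc finger protein that binds nucleic acids, ran from 619 through 767 to 817 CPM in cultured and from 426 through 506 to 677 CPM in uncultured oocytes. In 7 of 8 cultured libraries it was above every uncultured one, and its log2 difference of 0.48 ± 0.10 (edgeR adjusted p = 0.0300) is 1.399-fold. Trmt10c (chr16:55852972-55858183), a methyltransferase subunit of mitochondrial RNase P, ran from 51.2 through 62.7 to 104 CPM in vitro and from 13.6 through 34.0 to 59.5 CPM in vivo. In 6 of 8 cultured libraries it was above all uncultured ones, and it rose by 0.93 ± 0.19 (edgeR adjusted p = 0.0318).

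Among genes of protein turnover and mitochondria, Psmd7 (chr8:108307013-108315097), a lid subunit of the proteasome's regulatory particle, did not overlap between groups. It ran from 96.5 through 118 to 145 CPM in vitro and from 54.9 through 73.998 to 91.4 CPM in vivo, and rose by 0.65 ± 0.14 (edgeR adjusted p = 0.0385). The other 30 tested proteasome genes were not called and the median over all 31 was -0.003. Atg101 (chr15:101182153-101188827), a partner of the ULK1 kinase complex that starts autophagy, ran from 158 through 193 to 209.6 CPM in vitro and from 84.9 through 131 to 165.2 CPM in vivo, and rose by 0.55 ± 0.11 (edgeR adjusted p = 0.0318). It is not in the autophagy list, of whose tested members 0 of 23 (median log2 difference -0.05) were called. Ppif (chr14:25694578-25700893), the cyclophilin D of the mitochondrial permeability transition pore, ran from 14.6 through 21.3 to 25.2 CPM in vitro and from 5.00 through 7.78 to 17.9 CPM in vivo. In 7 of 8 cultured libraries it lay above all uncultured ones, and it rose by 1.17 ± 0.25 (edgeR adjusted p = 0.0318). Ppif also passed the filter through the groups in which it is high, with 2 to 21 counts in the uncultured libraries.

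Avpi1 (chr19:42111712-42117499), a gene named for its induction by vasopressin, ran from 74.2 through 116 to 154 CPM in cultured and from 25.7 through 57.2 to 86.1 CPM in uncultured oocytes. In 7 of 8 cultured libraries it lay above all uncultured ones, and it rose by 0.94 ± 0.18 (edgeR adjusted p = 0.0300). Crym (chr7:119785603-119801335), a crystallin that binds thyroid hormone, ran from 25.2 through 35.8 to 42.1 CPM and from 10.2 through 15.3 to 24.2 CPM without overlap, and rose by 1.03 ± 0.22 (edgeR adjusted p = 0.0318). Rims1 (chr1:22356475-22845204), which organises vesicle release sites at synapses, ran from 48.2 through 65.5 to 100.1 CPM in cultured and from 89.9 through 110.1 to 133 CPM in uncultured oocytes. In 7 of 8 cultured libraries it lay under every uncultured one, and its log2 difference was -0.71 ± 0.14 (edgeR adjusted p = 0.0306). Gm43303 (chr5:45350011-45409272), a predicted gene, was 92.5 ± 21.2 and 50.4 ± 13.2 CPM. It lies wholly inside D5Ertd615e, a long non-coding RNA gene that did not pass the filter on low counts, so its value is uncertain.

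Other genes of the table overlap 6 of the 12. Lsm1 shares 1 base with Bag4, which was tested (log2 difference -0.17, edgeR adjusted p = 0.928), and Ppif, Ctdp1, Rims1, Trmt10c and Gm43303 overlap non-coding, pseudogene or unclassified entries that did not pass the filter. No source used here says whether the counting used strand. In the YY oocytes, whose comparison with the uncultured oocytes shares the same 8 in vivo libraries, Avpi1 was 112 ± 22.8, Ubtf 19.3 ± 5.52, Cnbp 702 ± 67.1, Psmd7 107 ± 24.1 and Rims1 78.9 ± 14.2 CPM (SD, n = 11).

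**Figure D2:**
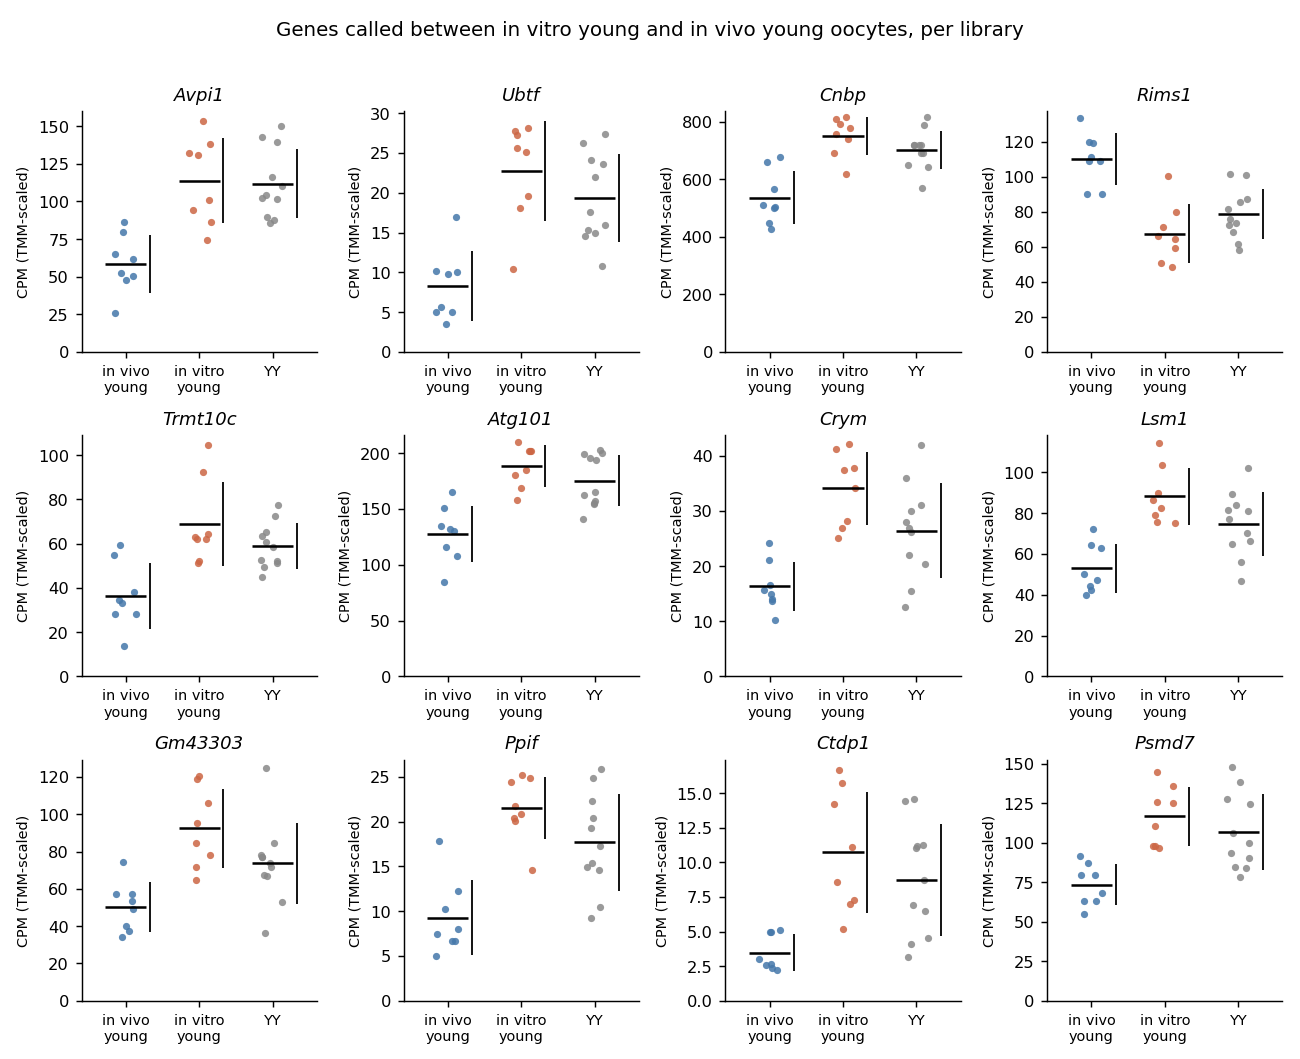
TMM-scaled CPM of the 12 called genes in every library of in vivo young (blue, n = 8), in vitro young (orange, n = 8) and YY (grey, n = 11) oocytes. Points are libraries, horizontal bars means and vertical lines 1 SD; Rims1 is lower in vitro, and the in vitro and in vivo libraries do not overlap for Crym, Lsm1, Ctdp1 and Psmd7.

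The libraries of the groups did not overlap for 16 genes (0.183% of those tested), 11 higher and 5 lower in culture, and 4 of them were called. Those not called were Clpp, Chmp2b, Atp5g3, Smad5, Arpc1b, Tmem218 and Tmem250-ps on the higher side, and Gyg, Birc6, Musk, Gm31925 and 0610033M10Rik on the lower side. Clpp, Smad5 and Tmem218 passed the filter through the groups in which they are high. Smad5, a signal carrier for bone morphogenetic proteins, ran from 12.9 through 15.6 to 26.9 CPM in vitro and from 3.41 through 10.0 to 11.6 CPM in vivo (1.05 ± 0.25, edgeR adjusted p = 0.0778). Arpc1b, a subunit of the actin-nucleating Arp2/3 complex, ran from 132 through 179 to 238 CPM and from 46.3 through 92.3 to 126 CPM (1.01 ± 0.25, edgeR adjusted p = 0.1001). Gyg, the primer of glycogen synthesis, ran from 827 through 907 to 959 CPM in vitro and from 965 through 1044 to 1133 CPM in vivo (-0.22 ± 0.08, edgeR adjusted p = 0.263). Just outside the threshold lay Gxylt1, Aunip, Cldn34b2, Krt84 and 0610033M10Rik, with log2 differences of 0.77, 0.94, -0.75, 1.10 and -0.74 (edgeR adjusted p = 0.0661, 0.0661, 0.0661, 0.0672 and 0.0672). At an adjusted p under 0.1 there were 33 genes, 25 of them higher in vitro.

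The 95% interval of the difference bounded most genes. It lay within 2-fold in either direction for 7546 genes (86.2%) and within 1.5-fold for 4067 (46.5%). Of the 2205 genes with a mean of at least 100 CPM, 1898 (86.1%) were within 1.5-fold. The median standard error was 0.13 for these and 0.37 for the 598 genes under 10 CPM. A difference of at least 2-fold was estimated for 61 genes, 44 higher and 17 lower, with a median level of 12.0 CPM against 39.8 CPM over all genes tested.

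**Figure D3:**
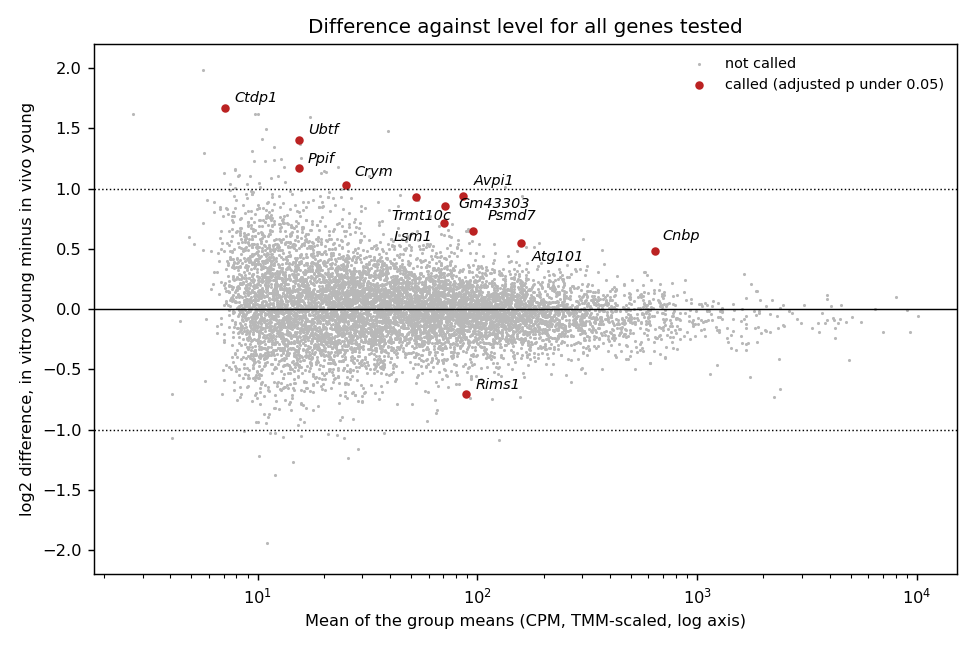
Difference against level for the 8749 genes tested. The x axis is the mean of the group means in TMM-scaled CPM (log axis), the y axis the log2 difference in vitro young minus in vivo young, red points are the 12 called genes and dotted lines mark 2-fold; the cloud narrows with level, 11 called genes lie above 0 and Rims1 lies below it.

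Gene lists by function were read next: 56 lists with 1363 entries, of which 1328 matched the table, and 926 distinct genes were tested. Of these 2 were called, Ubtf (nucleolus and RNA polymerase I, 1 of 19) and Psmd7 (proteasome, 1 of 31), and none was called lower, against 0.137% of all genes tested. At that share a list with 0 calls says little of its members, here and in the other paragraphs. The median log2 difference was within 0.1 of 0 in 38 of the 52 lists with at least 3 tested genes and beyond 0.2 in 3. Those were the granulosa and cumulus markers (0.27, 4 tested genes), the zona pellucida and egg surface (-0.22, 10 genes) and the subcortical maternal complex and maternal effect list (-0.40, 20 genes). The granulosa median includes Inha, which passed the filter mainly through cultured libraries.

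**Figure D4:**
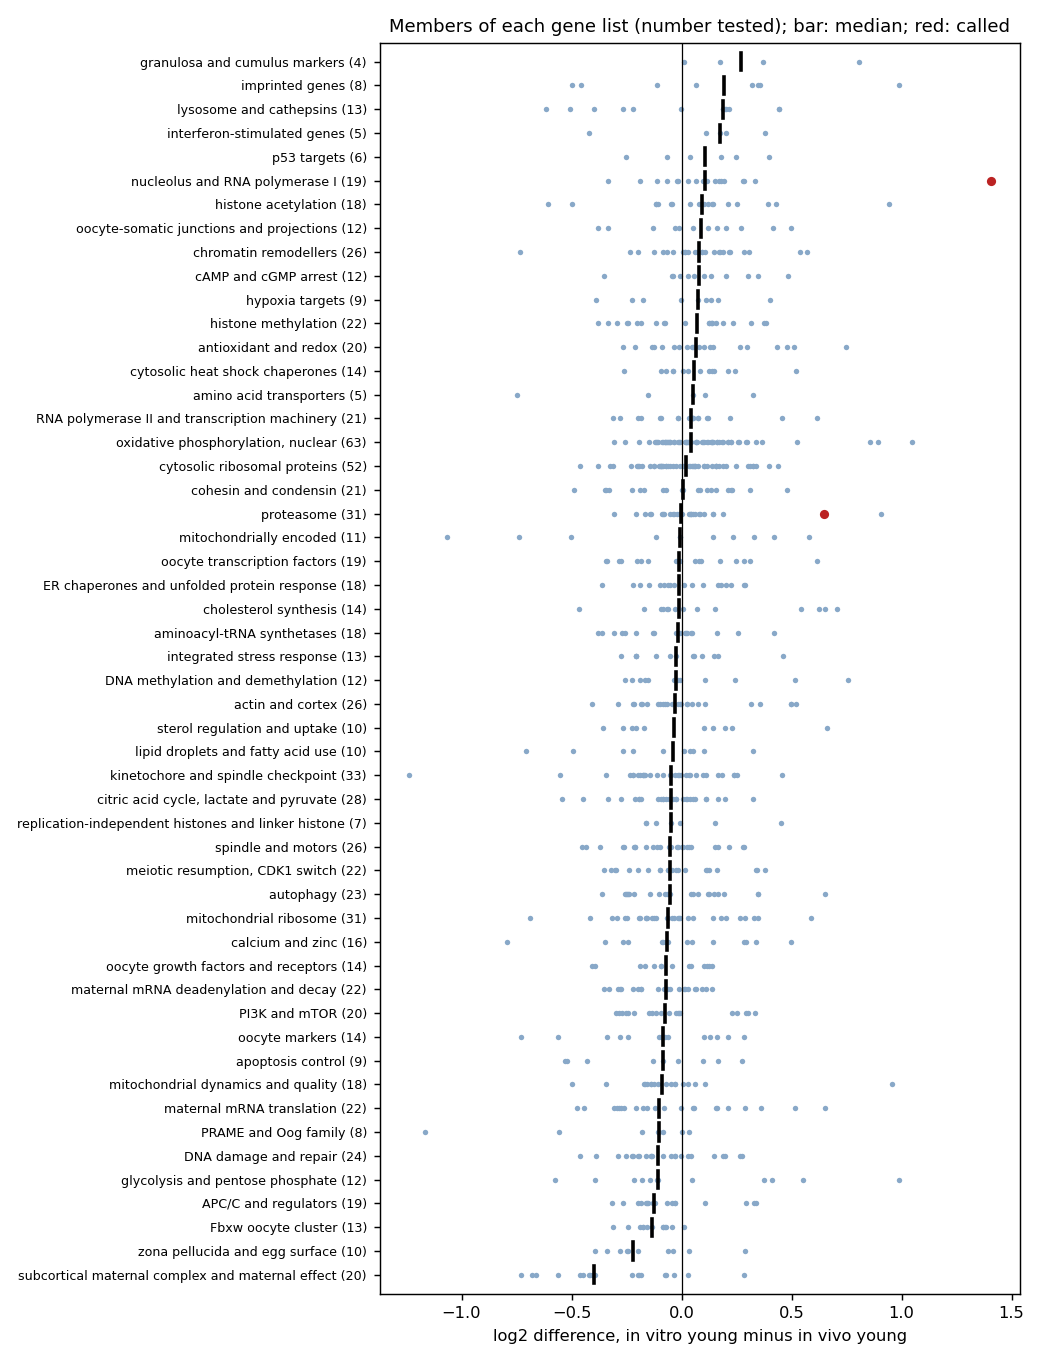
Log2 difference, in vitro young minus in vivo young, of every tested member (points) of each list with at least 3 tested genes, with the list median as a bar. Red points are called genes; the medians run from -0.40 in the maternal complex list to 0.27 in the granulosa list, and 38 of 52 lie within 0.1 of 0.

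In the list of the subcortical maternal complex, the protein lattice of the oocyte cortex that the early embryo needs, and other maternal effect genes, 0 of 20 tested genes were called. The estimate was negative for 18 of them, against 4446 of all 8749 genes tested and 23 of the 30 most abundant genes. Of the 20 list members, 4 had an unadjusted p under 0.05, all lower. Over the alternatives the number of negative estimates ran from 17 to 19 and the median from -0.49 (in vitro S128 to S149 alone) to -0.19 (in vitro S162 to S165 alone). Nlrp5, a core member of the complex, ran from 538 through 1798 to 2812 CPM in cultured and from 1175 through 2956 to 4658 CPM in uncultured oocytes, with overlapping groups (-0.73 ± 0.36, edgeR adjusted p = 0.5264). Padi6, of the same lattice, ran from 823 through 1505 to 1925 CPM and from 1713 through 2105 to 2567 CPM, with 5 of 8 cultured libraries under every uncultured one (-0.56 ± 0.19, edgeR adjusted p = 0.259). Tle6, another core member, was 1032 ± 222 and 1423 ± 335 CPM (-0.46 ± 0.17, edgeR adjusted p = 0.314), and Nlrp14 was 1845 ± 774 and 2923 ± 816 CPM (-0.66 ± 0.34, edgeR adjusted p = 0.563). The low cultured libraries were in vitro young replicates 1 to 3, with 1204, 715 and 538 CPM of Nlrp5 and 856, 823 and 1029 CPM of Padi6. The other 5 held 1661 to 2812 and 1415 to 1925 CPM. Low values were not limited to culture: uncultured replicate 6 held 1175 CPM of Nlrp5, under cultured replicate 1. Its Tle6 was 761 CPM, against 871, 742 and 794 CPM in cultured replicates 1 to 3. Its Padi6 (1713 CPM) and Nlrp14 (1896 CPM) lay above those 3 libraries. In YY, against the same in vivo libraries, Nlrp5 was 552 ± 298, Padi6 789 ± 245, Tle6 895 ± 235 and Nlrp14 835 ± 487 CPM (SD, n = 11).

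Of the other members of that list, Npm2, Ooep, Dppa3 and Zfp57 had estimates near 0. Npm2, the chaperone that decondenses sperm chromatin, was 1120.2 ± 76.8 and 1097 ± 84.0 CPM (0.03 ± 0.08), with a 95% interval of -0.12 to 0.18. Ooep, of the lattice, was 1233 ± 147 and 1294 ± 223 CPM (-0.07 ± 0.11), with an interval of -0.29 to 0.15. Dppa3, which protects maternal methylation, was 4058 ± 443 and 4272 ± 734 CPM (-0.07 ± 0.10), and Zfp57, which keeps imprints, was 2659 ± 218 and 2723 ± 218 CPM (-0.03 ± 0.08). Npm2, Ooep and Zfp57 changed sign in some alternatives. Khdc3, also of the lattice, was not near 0 but loosely bounded (-0.68 ± 0.57, edgeR adjusted p = 0.770). It was 44.9 ± 38.7 and 70.5 ± 45.9 CPM, with a library under 10 CPM in each group.

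**Figure D5:**
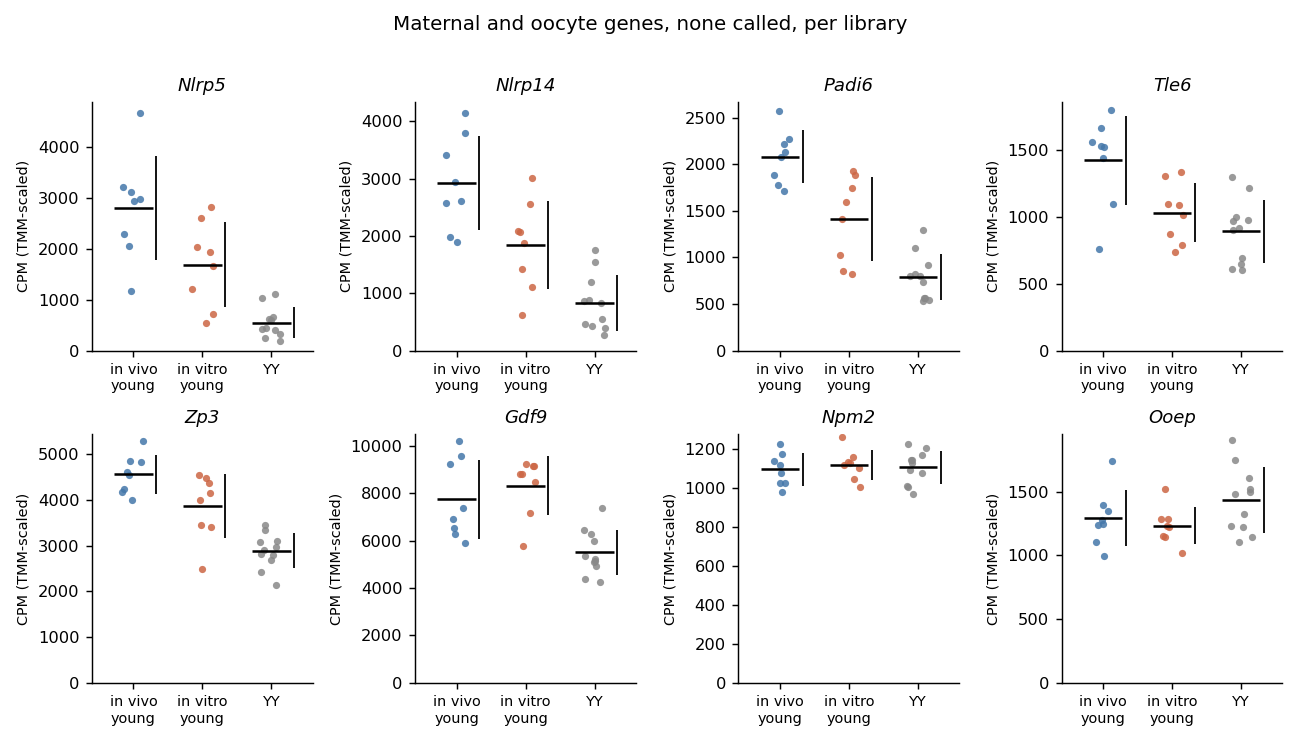
TMM-scaled CPM of 8 maternal and oocyte genes, none of them called, in every in vivo young (blue, n = 8), in vitro young (orange, n = 8) and YY (grey, n = 11) library. Points are libraries, horizontal bars means and vertical lines 1 SD; the in vitro and in vivo libraries overlap for all 8 genes, and for Npm2 and Ooep the means lie close together.

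In the zona pellucida and egg surface list 0 of 10 genes were called, and 8 had a negative estimate. Over the alternatives the number of negative estimates ran from 6 to 10 and the median from -0.24 to -0.11, the latter with in vitro S162 to S165 alone. The count of 10 came from the fit with no filter on low counts, in which 13 genes of the list were tested. Zp1, Zp2 and Zp3, the proteins of the egg coat, were 1322 ± 382 and 1675 ± 378 CPM, 1537 ± 377 and 1864 ± 271.6 CPM and 3861 ± 705 and 4564 ± 425 CPM in vitro and in vivo. Their log2 differences were -0.34 ± 0.17, -0.28 ± 0.13 and -0.24 ± 0.10 (edgeR adjusted p = 0.512, 0.498 and 0.418). Zp2 was 1290.0, 974 and 1067 CPM in in vitro young replicates 1 to 3, and 1592 to 1962 CPM in the other 5 cultured libraries, which lie within the uncultured range. Izumo1r, the egg receptor Juno for sperm, was 126 ± 16.8 and 166 ± 16.4 CPM, with 5 of 8 cultured libraries under every uncultured one (-0.39 ± 0.11, edgeR adjusted p = 0.165). Gdf9 and Bmp15, the growth factors with which the oocyte acts on granulosa cells, were 8324 ± 1236 and 7758 ± 1667 CPM and 3763 ± 684 and 4016 ± 723 CPM, with 95% intervals of the log2 difference of -0.14 to 0.34 and -0.33 to 0.14. Kit, the oocyte receptor for the granulosa cells' Kit ligand, was 126 ± 40.4 and 167 ± 17.5 CPM (-0.41 ± 0.16, edgeR adjusted p = 0.352). The oocyte homeobox gene Obox1 was 1478 ± 161.6 and 1871 ± 245 CPM (-0.34 ± 0.09, edgeR adjusted p = 0.132), and DESeq2 called it (adjusted p = 0.0370). It belongs to a family of similar copies, so its count is uncertain.

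None of the 30 most abundant genes was called, and their differences ran from -0.42 to 0.12, with 23 lower and 7 higher in vitro. The 95% interval was within 1.5-fold for 29 of them, Zbed3 being the exception (4194 ± 1817 and 5613 ± 2029 CPM; -0.42 ± 0.27). Spin1, a histone reader, was 9903 ± 899 and 10327 ± 378 CPM (-0.06 ± 0.07), H1f8, the oocyte linker histone, 9022 ± 1084 and 9053 ± 919.9 CPM (-0.01 ± 0.08), and Btg4, an adaptor for deadenylation, 4116 ± 368 and 4035 ± 446 CPM (0.03 ± 0.08). Ldhb, a lactate dehydrogenase subunit, was 8705 ± 1979 and 9953 ± 1129 CPM (-0.19 ± 0.12, edgeR adjusted p = 0.638).

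No tested gene of the stress lists was called, against 0.137% of all genes tested, so these counts say little of the lists. Calls were made for 0 of 14 (median log2 difference 0.06) cytosolic heat shock chaperones, 0 of 18 (median log2 difference -0.01) genes of the endoplasmic reticulum chaperones and unfolded protein response, and 0 of 13 (median log2 difference -0.02) genes of the integrated stress response. They were made for 0 of 20 (median log2 difference 0.07) antioxidant and redox genes, 0 of 9 (median log2 difference 0.07) hypoxia targets and 0 of 6 (median log2 difference 0.11) p53 targets. Hspa8, a constitutive chaperone, was 283 ± 52.2 and 303 ± 57.8 CPM (-0.09 ± 0.18), and Hspa5, the main chaperone of the endoplasmic reticulum, 425 ± 127 and 494 ± 188 CPM (-0.22 ± 0.22). Atf4, a transcription factor of the integrated stress response, was 107 ± 23.5 and 77.3 ± 14.5 CPM (0.46 ± 0.22, edgeR adjusted p = 0.502). Gpx1, a glutathione peroxidase, was 35.3 ± 7.03 and 19.98 ± 10.49 CPM (0.75 ± 0.24, edgeR adjusted p = 0.207).

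Genes of sterol and energy use were likewise uncalled, against the same 0.137% of all genes tested. Of the cholesterol synthesis enzymes 0 of 14 (median log2 difference -0.01) were called. Msmo1, a demethylating enzyme of that pathway, was 94.6 ± 24.4 and 59.4 ± 16.9 CPM (0.71 ± 0.20, edgeR adjusted p = 0.156), and Hsd17b7, also of that pathway, was 142 ± 30.5 and 97.1 ± 19.7 CPM (0.54 ± 0.15, edgeR adjusted p = 0.159). G6pdx, the entry enzyme of the pentose phosphate pathway, was 426 ± 57.6 and 560.1 ± 65.9 CPM, with 5 of 8 cultured libraries under every uncultured one (-0.39 ± 0.10, edgeR adjusted p = 0.0952). Of the nuclear oxidative phosphorylation genes 0 of 63 (median log2 difference 0.04) were called, and of the cytosolic ribosomal proteins 0 of 52 (median log2 difference 0.02).

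The mitochondrially encoded genes held 0.216 ± 0.0580% of counts in vitro and 0.204 ± 0.0821% in vivo (exact two-sided permutation test, p = 0.74, adjusted over 10 values p = 0.8), and 0 of the 11 tested, out of 15 listed, were called. The ribosomal RNAs mt-Rnr1 and mt-Rnr2 were 363 ± 200.7 and 243.1 ± 95.1 CPM (0.58 ± 0.35) and 742 ± 128.3 and 673 ± 235 CPM (0.15 ± 0.30). The complex I transcripts mt-Nd1, mt-Nd2, mt-Nd4, mt-Nd5 and mt-Nd6 had log2 differences of 0.23, -0.01, -0.12, -0.01 and 0.42. Those of the cytochrome oxidase transcripts mt-Co1 and mt-Co3 were 0.33 and -0.74, that of mt-Cytb -0.50, and that of mt-Atp6, an ATP synthase subunit, -1.07 ± 0.55 (edgeR adjusted p = 0.547).

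Among genes of meiosis, called members are again set beside 0.137% of all genes tested. They were 0 of 33 (median log2 difference -0.05) for the kinetochore and spindle checkpoint. For the CDK1 switch of meiotic resumption they were 0 of 22 (median log2 difference -0.05). For the APC/C and its regulators they were 0 of 19 (median log2 difference -0.13). Cdk1, the kinase that drives entry into M phase, was 179.6 ± 12.8 and 177 ± 13.8 CPM (0.02 ± 0.11), and Ccnb1, its cyclin, 1289.9 ± 140.4 and 1435 ± 196 CPM (-0.15 ± 0.13). Kntc1, a kinetochore protein, ran from 2.23 through 16.8 to 23.9 CPM in vitro and from 18.7 through 31.8 to 58.7 CPM in vivo (-1.24 ± 0.31, edgeR adjusted p = 0.0889). Itpr1, the calcium release channel used at fertilisation, ran from 15.6 through 32.3 to 46.1 CPM and from 39.1 through 54.4 to 81.6 CPM, with 6 of 8 cultured libraries under every uncultured one (-0.79 ± 0.21, edgeR adjusted p = 0.10997).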

How the data were processed

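Reads per gene of 45 single mouse oocytes were analysed as whole-number counts deposited by the authors, not normalized, for 55357 gene identifiers. Per the submitters' processing notes, the tools were STAR 2.7.8a and HTSeq 0.11.0 and the build was mm39. Groups came from the labels. The 8 in vitro young and 8 in vivo young libraries were fitted with the 11 YY libraries in edgeR 4.0.16 (R 4.3.3). TMM factors were used, genes were kept by filterByExpr on the groups (count of 10, total of 15), the quasi-likelihood fit was robust, and p-values were adjusted by Benjamini-Hochberg over all genes tested. Standard errors were derived from the F statistic. Other fits used DESeq2 1.42.0 and limma 3.58.1, and values per library were compared by exact permutation of the 12870 splits.

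The rule for named genes took, in each direction, up to 10 called genes by p with a log2 change of 1 or more, 10 CPM or more and 5 counts in a 0.75 share of the higher group's libraries, without predicted models. To these it added up to 2 called members per list and every tested mitochondrial gene. It gave Ubtf, Crym, Ppif, Ctdp1, Psmd7 and the mitochondrial genes. The rest of the genes named were picked with their values in view. The members and lists were chosen with earlier results of these data known. The fit was tested on simulated data. Each library is labelled a biological replicate and counts as 1 sample. Within groups the libraries differed beyond counting error (smallest chi-square per degree of freedom 2.46 over pairs), which does not show that they come from separate animals. Promoters are on another build, GRCm38.p6, and no coordinates were converted.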

Additional observations from a re-analysis of the deposited data

Results flagged for a closer look

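Of 186 groups of 8 libraries examined, 15 held 1 library that stood apart from the other 7 by Dixon's test at the 95% level. Chance gives about 1 in 20. For genes the test used log2 of CPM plus 1, so gaps between the CPM printed here are not those tested. Each value is given against the nearest of the others, in CPM unless stated. In the cultured oocytes replicate 4 was low for Ubtf (10.4 against 18.1), replicate 5 for Ppif (14.6 against 20.04), replicate 1 for mt-Co1 (96.4 against 211) and replicate 2 for Bmp15 (2332 against 3467). Replicate 3 was low for Ddx4 (50.1 against 77.9), Kntc1 (2.23 against 8.55) and Birc6 (12.2 against 24.1), and high for Clpp (27.8 against 20.2). Replicate 2 was high for Cst3 (132 against 86.8) and replicate 6 for Aunip (78.1 against 59.9). In the uncultured oocytes replicate 2 was low for mt-Nd4 (25.5 against 49.9), replicate 1 for Khdc3 (2.02 against 29.1) and replicate 3 for Izumo1r (131 against 158). Replicate 6, the deepest library, had the highest share of counts from lncRNA genes (2.82 against 2.449, in percent) and the lowest summed unscaled level of endothelium and blood markers (24.5 against 57.1).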

How the results depend on the processing

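The 12 called genes kept their direction, in fits that reuse the libraries they were picked from, but the number of genes called moved. Against 12, DESeq2 gave 44, limma voom 37 with quality weights and 19 without them, no filter on low counts 29, the 16 libraries alone 20, all 45 libraries 29 and the pattern as a fixed block 22. The covariate of genes with a count and the pattern within each group as a random block gave 0 each. In vitro S162 to S165 or S128 to S149 alone also gave 0 each. So did the fit without in vivo young replicates 3, 5 and 6, the 2 shallowest and the deepest (899 genes with an unadjusted p under 0.05). With 1 library left out the count ran from 0 to 18. Called list members, 2 in the reported fit, were 6 with DESeq2, 4 with voom and quality weights, 4 with no filter, 4 with all 45 libraries, 1 with a minimum count of 30, 1 with in vivo S71 to S77 alone, 0 in the 5 fits that called no gene, and 0 to 4 with 1 library left out. Voom without weights, the fit without those 3 libraries and the GC and length correction were chosen after seeing the data. Fits on part of the libraries hold fewer samples; for the other changes the cause was not tested.

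With the replicate number as a block, in a fit of the 16 libraries without YY, 8 genes were called, 4 of them among the 12, and 1 list member; those 16 libraries without the block gave 20 genes, 10 of them among the 12, and 2 list members. The numbers do not pair the libraries: deviations of same-numbered libraries correlated at -0.0915 to 0.24, 4 of 8 above 0.1, and 2 of 8 matched their own number best. The difference in genes detected at a common depth, 363, was 312 to 416 with 1 library left out. It passed the adjusted test only without in vitro young replicate 7 (exact permutation test, adjusted p = 0.0295) or in vivo young replicate 6 (adjusted p = 0.0404). Of 71 uncalled genes followed through the alternatives, 12 passed in at least 1 of them (Obox1, Msmo1, G6pdx, Kntc1, Itpr1, Gxylt1, Aunip, Cldn34b2, Krt84, Smad5, Arpc1b and Musk) and 20 changed sign in at least 1. Depth leaves genes under 10 CPM loosely bounded.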
